A study of Mus musculus with 6 samples.

Results

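Interferon-stimulated genes are the transcripts that cells raise when interferon reaches them, and 46 of them were followed here in mouse basal cell carcinoma (BCC) with and without the transcriptional co-activator YAP. The 46 were given as a list of gene symbols, of which 45 stood in the table of 23337 genes under that symbol. Ifi27 was listed under its older symbol Ifi27l1, so all 46 were found. The list was drawn up with earlier results of these data known, so the values below describe it, and counts of calls among its genes are no independent evidence.

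The tumour cells were isolated from ear epidermis of mice carrying R26-SmoM2/+ and K14CreER, in which tamoxifen at 4 weeks of age switches on an active Smoothened in keratinocytes that express keratin 14. RNA was sequenced 6 weeks after tamoxifen from 3 libraries of this genotype (wild type) and from 3 libraries of mice that also carried Yapfl/fl (knockout). Both groups thus carry the same SmoM2 allele, Cre driver and tamoxifen treatment and differ by label in the Yap allele. The labels do not say whether a library is 1 animal or a pool, so errors and p-values cover the spread between libraries. Values in a sentence are given in the order of the replicate numbers 1, 2 and 3 and are normalized counts, that is, read counts divided by a size factor for each library, which can be compared between libraries and not between genes.

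Type I and type III interferons bind receptors coupled to the kinases JAK1 and TYK2, and the signal reaches the nucleus through ISGF3, a complex that includes STAT2 and IRF9 and binds the interferon-stimulated response element (ISRE) in promoters. Interferon gamma signals to the gamma-activated site (GAS) in promoters, and IRF1 carries much of its later response. In skin, keratinocytes both sense nucleic acids and respond to interferon, so the same genes can be raised by infection, by damage or by cytokines from neighbouring cells.

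Yap1 stood at 5765, 6004 and 5573 in wild type and at 591, 773 and 1764 in knockout, so the groups did not overlap and knockout library 3 kept the most transcript. Reads assigned to genes ran from 15405490 to 25260431 per library. Replicates 1 and 2 of each group carry label codes starting with DM22 and replicate 3 codes starting with DM24; the DM24 libraries were the shallower ones, at 15405490 and 15572640 reads, and differed from the others in the sex-linked transcripts Xist (58654 to 59594 against 8.62 to 15.1) and Ddx3y (0 reads against 3202 to 3426). The basal keratinocyte gene Krt5 lay between 223225 and 347189. Of the leukocyte genes, Ptprc lay between 0 and 3.36, Cd3e between 0 and 0.841 and Csf1r between 0 and 6.70. Others of the leukocyte marker lists were higher, among them Cd74 (75.4 to 523), H2-Ab1 (146 to 314), Cd68 (73.1 to 126) and Vav1 (7.80 to 65.8). Siglech, a marker of plasmacytoid dendritic cells, was at 0 reads in every library. A count of 0 reads was taken to allow up to 3 reads, or 2.47 to 3.90 normalized counts, for counting error alone. The two-sided 95% Poisson limit is a little wider, at 3.69 reads.

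No interferon-stimulated gene was called between the genotypes by limma, which called 0 of the 13671 genes it tested. Yap1 itself (log2 difference −2.63 ± 0.39, SE) was not called by limma (Benjamini-Hochberg adjusted p = 0.517) but was by DESeq2 (adjusted p = 1.4e-07). A missing limma call is therefore weak evidence of no difference. The largest values of the interferon-stimulated genes gathered in single libraries, above all in knockout library 1. In bulk RNA, fewer cells of a type and less RNA per cell cannot be told apart. Of the 46 genes, 29 (63.0%) had their highest value of the 6 libraries in knockout library 1, where 12% of the 18215 genes with any read had theirs. Wild-type libraries 1 and 2 and knockout library 3 each held the highest value of 5 genes, and wild-type library 3 and knockout library 2 of 1 gene each.

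**Figure D1:**
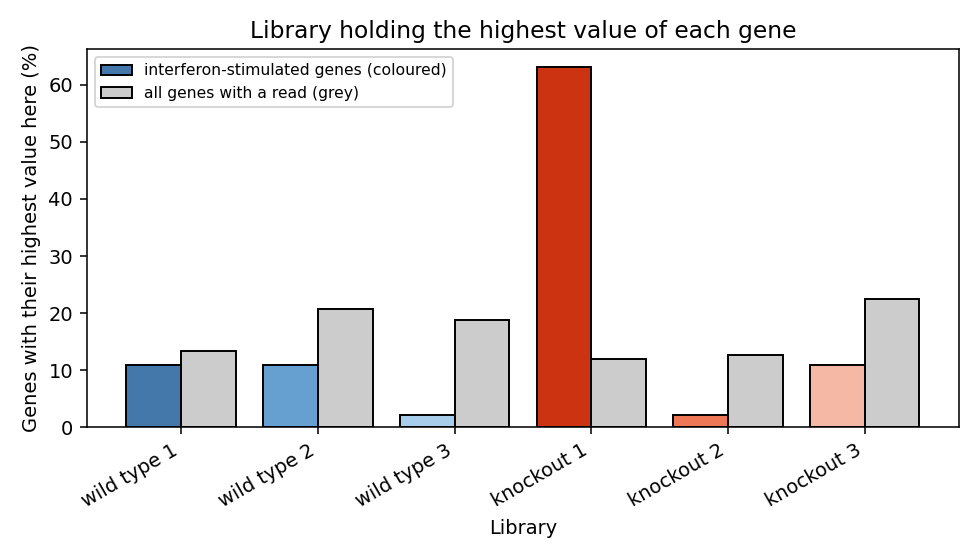
Percent of genes (vertical axis) whose highest normalized count of the 6 libraries fell in the library named on the horizontal axis, for the 46 interferon-stimulated genes (coloured bars) and for the 18215 genes with a read (grey bars). Knockout library 1 holds the highest value of 63.0% of the interferon-stimulated genes and of 12% of all genes with a read.

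The strength of that state can be read from genes that stood well above every other library. Tests covered the 13671 genes whose mean reached 10 normalized counts, and of these 10 genes (0.0731%) were at least 2-fold higher in knockout library 1 than in the next highest library. These 10 were Mx1, Rsad2, Ifit1, AF529169, Mx2, Oasl2, Gbp3, Phf11d (listed as D14Ertd668e), Bst2 and Iigp1, named here after their values were seen. Iigp1 was just inside this limit, at 2.02-fold, and Gbp7 just outside, at 1.90-fold. Of the 10, 8 belong to the 46, and Phf11d belongs to a second list of interferon-inducible genes given further on. Some of these genes pass the mean of 10 through knockout library 1 itself, so the number is a description of that library. Below the filter, Ifit3 and Ifi44 also exceeded the next library by at least 2-fold, on 36 and 30 reads there. The share of all genes that do so without the filter was not taken, so these 2 have no background. With the filter, knockout library 3 held 1 of the 41 interferon-stimulated genes tested (Cxcl9), where 0.519% of tested genes stood out in it. The other 4 libraries held none, with 6 to 57 tested genes standing out in each.

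Averaged over the 41 genes that reached the mean of 10, log2(normalized count + 1) around each gene's own mean was 0.84 in knockout library 1 and 0.25 in wild-type library 2. It was −0.28 in wild-type library 1, −0.51 in wild-type library 3, −0.16 in knockout library 2 and −0.13 in knockout library 3. Wild-type library 3 held the lowest value of 14 of the 41 (18% of tested genes had their lowest there), and knockout library 1 the lowest value of none (14.2% of tested genes).

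**Figure D2:**
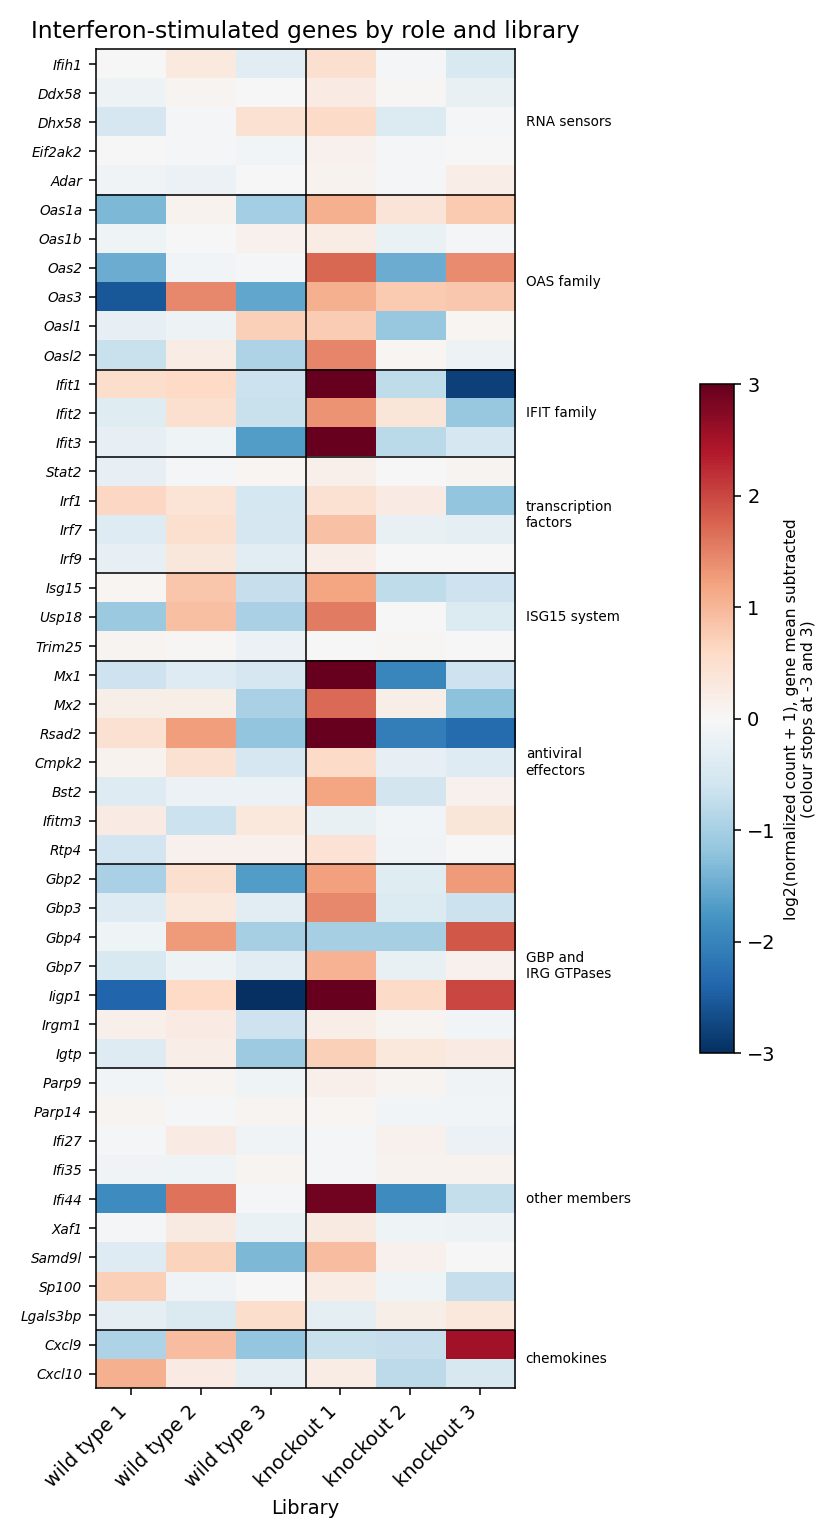
Each row is 1 of the 46 interferon-stimulated genes, grouped by role, and each column 1 library; colour gives log2(normalized count + 1) with the gene's mean over the 6 libraries subtracted, and stops at −3 and 3. The column of knockout library 1 is the reddest, while Trim25, Parp14 and Ifi35 stay near white across the row.

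Of the 7 antiviral effectors, 6 were highest in knockout library 1. Mx1, a dynamin-like GTPase that blocks replication of RNA viruses (chromosome 16, 97447035 to 97462907, minus strand, GRCm38), stood at 20.2, 23.9 and 22.1 in wild type and at 554, 7.42 and 20.2 in knockout. Knockout library 1 was 23.1-fold above the next library, on 621 reads against 9 to 25, while the other 5 libraries overlapped between the genotypes. Many laboratory strains carry a deletion in Mx1, and the labels do not name the strain. Its neighbour Mx2 (chromosome 16, 97535308 to 97560900, plus strand) had 58.8, 59.4 and 26.01 in wild type and 170, 58.5 and 21.5 in knockout, again with knockout library 1 apart (2.87-fold above the next). Rsad2, which encodes viperin, an enzyme that makes a chain-terminating nucleotide (chromosome 12, 26442746 to 26456452, minus strand), had 14.3, 25.9 and 3.90 in wild type and 163, 1.65 and 1.26 in knockout. Wild-type library 2 was second for Rsad2, and knockout libraries 2 and 3 had 2 and 1 reads. Cmpk2, the mitochondrial nucleotide kinase next to Rsad2 on the opposite strand (26469204 to 26479837), had 130, 168 and 85.8 in wild type and 181, 102 and 93.6 in knockout, so both neighbours had knockout library 1 first and wild-type library 2 second, Cmpk2 with an excess of 1.08-fold. Bst2 (tetherin), which holds budding virus particles at the cell surface, had 37.0, 43.1 and 42.9 in wild type and 111, 33.0 and 53.1 in knockout. Rtp4 lay between 25.2 and 51.7, highest in knockout library 1. Ifitm3, which blocks entry of viruses through endosomes, went its own way, with 6265, 3389 and 6615 in wild type and 4497, 4968 and 6827 in knockout. Its highest values were in the DM24 libraries and in wild-type library 1. Rsad2 and Bst2 here, and Ifit3 further on, are given in full because of their values in knockout library 1.

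The IFIT genes, whose proteins bind foreign RNA ends, lie together on chromosome 19. Ifit1 (34640871 to 34650009, plus strand) stood at 21.9, 23.0 and 9.10 in wild type and at 131, 8.24 and 1.26 in knockout. Ifit2 (34550694 to 34576419, plus strand) had 35.3, 64.2 and 28.6 in wild type and 120, 59.4 and 20.2 in knockout. Ifit3 (34583531 to 34588731, plus strand) had 36 reads in knockout library 1 and 0 to 2 reads in each other library, that is 32.1 normalized counts against 0 to 1.92. All 3 were highest in knockout library 1. Reads of Ifit3 and its near copy Ifit3b could not be told apart with certainty, and Ifit3b itself had 10.7 in knockout library 1 and 0 reads in the other 5.

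The conjugation system of ISG15, a ubiquitin-like modifier, had knockout library 1 first for 2 of its 3 genes. Isg15 (chromosome 4, 156199424 to 156200818, minus strand) had 48.8, 84.3 and 28.6 in wild type and 107, 27.2 and 30.3 in knockout. Usp18, the protease that removes ISG15 and also restrains the type I receptor, had 5.88, 26.8 and 6.50 in wild type and 42.8, 14.0 and 10.1 in knockout. For both genes wild-type library 2 was second. Trim25, the ubiquitin ligase that activates the sensor RIG-I, was level, with 1257, 1218 and 1050 in wild type and 1200, 1223 and 1181 in knockout.

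**Figure D3:**
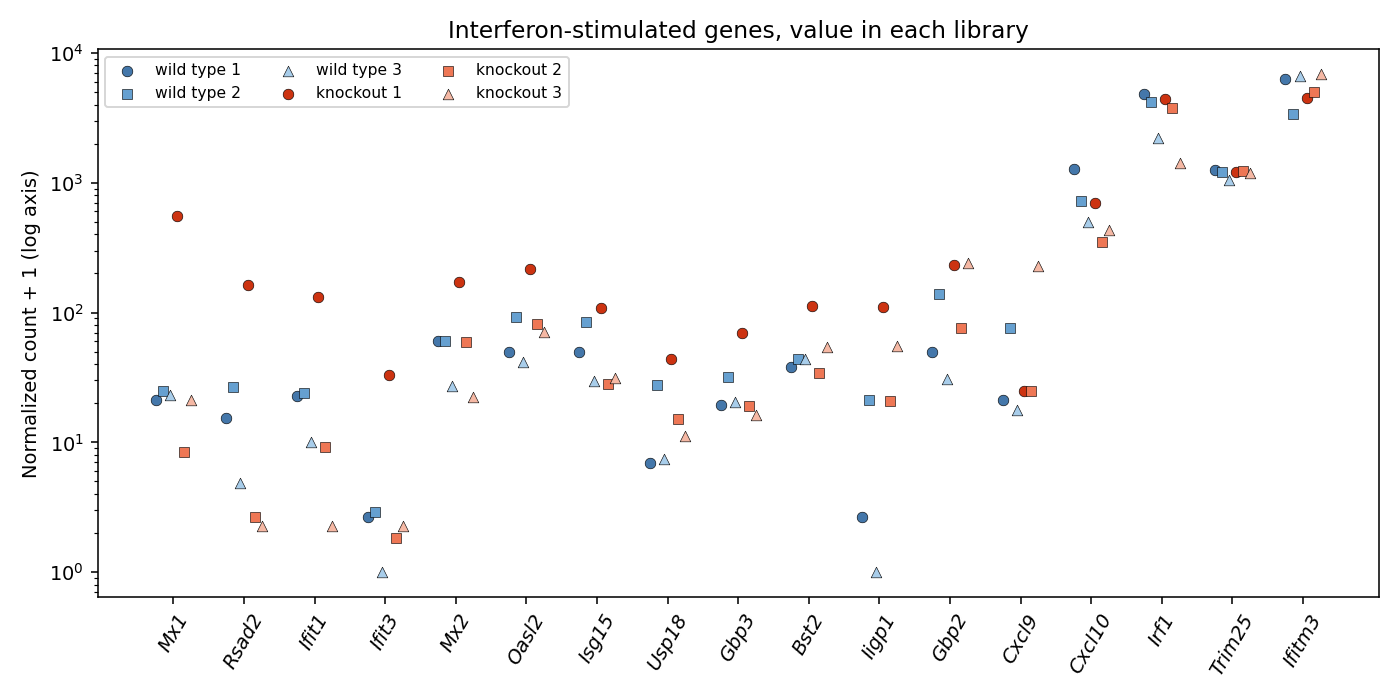
Normalized count + 1 on a log axis for 17 of the interferon-stimulated genes (horizontal axis), 1 point per library, wild type in blue and knockout in red, with circles, squares and triangles for replicates 1, 2 and 3. The dark red circle of knockout library 1 lies above every other point for Mx1, Rsad2, Ifit1, Ifit3, Mx2, Oasl2, Isg15, Usp18, Gbp3, Bst2 and Iigp1, and among the other points for Cxcl10, Irf1, Trim25 and Ifitm3.

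Promoter sequence is a property that the choice of genes did not use directly, although many interferon-stimulated genes are known for it. RefSeq's table for GRCm38.p6, which holds 250 bases before to 50 bases after each start, listed 34 of the 46 genes. The ISRE core, GAAA followed by any 2 bases and GAAA, searched on both strands, was present for 18 of the 34 (52.9%), and for 3.99% of the 27025 genes in the table. The GAS core TTCNNNGAA, which reads the same on both strands, was present for 10 of the 34 (29.4%) and for 9.55% of all genes. Among the 20 listed genes that were highest in knockout library 1 the ISRE core was found for 13, and among the other 14 for 5; the ISRE and GAS cores overlapped within the Bst2 and Ifitm3 promoters. A match describes letters and is not evidence that a factor binds. The 160 bases before the start are printed for 6 genes with a match, all highest in knockout library 1, for Oasl2, which was highest there and has no match in the table's window, and for Trim25, which was level and has none either. Capitals mark the ISRE core on either strand, which on the opposite strand reads TTTC, any 2 bases, TTTC.
Ifit1, chr19:34640729-34640888, plus strand: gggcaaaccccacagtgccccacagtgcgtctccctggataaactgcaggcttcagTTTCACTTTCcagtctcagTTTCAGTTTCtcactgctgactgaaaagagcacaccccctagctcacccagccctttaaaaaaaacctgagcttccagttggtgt
Ifit3, chr19:34583369-34583528, plus strand: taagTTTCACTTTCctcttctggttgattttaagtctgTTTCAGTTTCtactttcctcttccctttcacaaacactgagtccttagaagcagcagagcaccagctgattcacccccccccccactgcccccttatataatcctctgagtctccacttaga
Rsad2, chr12:26456453-26456612, minus strand: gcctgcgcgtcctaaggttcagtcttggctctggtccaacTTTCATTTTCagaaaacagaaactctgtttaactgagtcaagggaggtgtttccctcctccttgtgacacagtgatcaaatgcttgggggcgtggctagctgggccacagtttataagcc
Isg15, chr4:156200819-156200978, minus strand: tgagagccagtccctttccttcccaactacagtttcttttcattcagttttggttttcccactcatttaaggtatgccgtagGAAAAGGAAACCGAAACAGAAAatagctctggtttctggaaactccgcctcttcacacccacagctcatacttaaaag
Gbp3, chr3:142559884-142560043, plus strand: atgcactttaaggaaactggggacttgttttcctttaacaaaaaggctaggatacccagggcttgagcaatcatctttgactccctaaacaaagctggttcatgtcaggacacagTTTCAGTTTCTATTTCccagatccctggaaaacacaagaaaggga
Bst2, chr8:71537473-71537632, minus strand: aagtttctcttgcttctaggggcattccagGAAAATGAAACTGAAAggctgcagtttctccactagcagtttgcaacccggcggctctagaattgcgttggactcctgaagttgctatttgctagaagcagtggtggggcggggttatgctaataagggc
Oasl2, chr5:114896774-114896933, plus strand: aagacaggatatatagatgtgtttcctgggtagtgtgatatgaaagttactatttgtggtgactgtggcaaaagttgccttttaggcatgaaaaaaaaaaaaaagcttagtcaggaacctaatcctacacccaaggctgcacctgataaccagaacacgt
Trim25, chr11:88999243-88999402, plus strand: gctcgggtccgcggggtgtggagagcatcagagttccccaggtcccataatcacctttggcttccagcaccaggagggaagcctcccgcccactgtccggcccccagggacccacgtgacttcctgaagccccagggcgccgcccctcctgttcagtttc
Ifit1 and Ifit3 each hold the same 2 cores, TTTCACTTTC and TTTCAGTTTC, in the same order. In Isg15, 3 overlapping cores run together, and in Gbp3 and Bst2 2 overlap.

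Among the sensors and RNA-modifying enzymes the log2 differences between the genotypes were small, from 0.00738 to 0.175. Single libraries lay further apart, by 2.16-fold from lowest to highest for Dhx58 and 1.91-fold for Ifih1. Ifih1 (MDA5, a sensor of long double-stranded RNA) had 613, 755 and 493 in wild type and 858, 601 and 449 in knockout, and Ddx58 (RIG-I, a sensor of RNA 5′ triphosphates) had 503, 591 and 559 against 666, 570 and 478. Both were highest in knockout library 1 and lowest in knockout library 3. Dhx58 (LGP2, a regulator of both sensors) had 48.8, 67.0 and 96.2 in wild type and 105, 51.9 and 67.0 in knockout. Eif2ak2 (PKR, which stops translation on double-stranded RNA) had 803, 778 and 747 in wild type and 866, 775 and 797 in knockout. Adar, which edits adenosine in double-stranded RNA, had 1823, 1725 and 1961 in wild type and 2090, 1908 and 2225 in knockout, with the lowest knockout value inside the wild-type range. Of the 5, 4 were highest in knockout library 1 (Adar was highest in knockout library 3), at 1.08 to 1.14 times the next library.

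The OAS genes, which make the second messenger that activates RNase L or are inactive relatives of it, lie in a pair of clusters on chromosome 5, and several stood at few reads. Oas1a (120896256 to 120907521, minus strand) had 10.1, 29.7 and 13.0 in wild type and 58.9, 36.3 and 48.0 in knockout, so its groups did not overlap. Oas3 had 0.841, 27.8 and 2.60 in wild type and 21.4, 17.3 and 17.7 in knockout, where wild-type library 2 was the highest of all. Oas2 had 1, 4 and 3 reads in wild type and 18, 1 and 10 in knockout, below the mean needed for the test. Oasl2 (114896936 to 114912234, plus strand) had 48.8, 91.0 and 40.3 in wild type and 217, 80.8 and 69.5 in knockout, 2.38-fold above the next library in knockout library 1. Oas1b, truncated in many laboratory strains, had 103, 113 and 125 in wild type and 134, 99.8 and 111 in knockout, and Oasl1 had at most 2.68. Oas1a, Oas1b and Oas1g are close copies, so reads could be split between them.

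The large GTPases of the GBP and IRG families, which attack the vacuoles of intracellular pathogens and respond strongly to interferon gamma, were highest in knockout library 1 for 4 of 7 genes. Gbp2 (chromosome 3, 142620602 to 142638008, plus strand) had 48.8, 137 and 29.9 in wild type and 231, 75.0 and 238 in knockout. Iigp1 had 1.68, 20.1 and 0 in wild type and 110, 19.8 and 54.4 in knockout. For both, knockout libraries 1 and 3 were the 2 highest and wild-type libraries 1 and 3 the 2 lowest, with library 2 of each genotype between. Igtp (Irgm3, chromosome 11, 58199556 to 58207591, plus strand) had 81.5, 124 and 49.4 in wild type and 177, 134 and 126 in knockout, so its groups did not overlap. Gbp3 had 18.5, 30.6 and 19.5 against 68.7, 18.1 and 15.2, and Gbp7 63.0, 78.5 and 68.9 against 183, 75.0 and 96.1, both with knockout library 1 above the rest. Irgm1 had 214, 227 and 125 in wild type and 220, 204 and 180 in knockout, with overlapping groups, and Gbp4 lay between 0 and 6.32. GBP genes are near copies of each other, so their counts are uncertain to that extent.

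Among the transcription factors, 2 of 4 were highest in knockout library 1. Irf7, which amplifies type I interferon production, had 100, 181 and 92.3 in wild type and 240, 112 and 109 in knockout, the order of libraries seen for Isg15 at the top. Over the 6 libraries its correlation with the mean of the other tested interferon-stimulated genes was 0.977 (Pearson), the highest of the 41, which reached down to −0.673 for Ifitm3, a description over libraries that share genotype and code series. Stat2, a subunit of ISGF3, had 893, 1030 and 1100 in wild type and 1170, 1045 and 1113 in knockout. Irf9, the DNA-binding subunit, had 704, 1068 and 670 in wild type and 958, 842 and 846 in knockout. Irf1 followed another line, with 4853, 4203 and 2203 in wild type and 4379, 3743 and 1405 in knockout. The DM24 libraries were the lowest of each group. In a limma fit with genotype as a term, Irf1 differed by −1.28 ± 0.14 (SE, log2, DM24 minus DM22), with a Benjamini-Hochberg adjusted p of 0.0149, and was 1 of the 41 called lower, where 4.07% of all tested genes were called lower. Without knockout library 2 limma called 0 of the 41, Irf1 included, and 105 of 13670 genes. The lowest Benjamini-Hochberg adjusted p among the 41 was then 0.0601. Limma called 6.75% of all genes in either direction. By edgeR 1 of the 41 was called lower, where 3.28% of all genes were called higher, 3.6% lower and 6.88% either way. By DESeq2 3 of the 41 were called lower (Irf1, Mx2 and Ifih1), where 6.77% of all genes were called higher, 8.27% lower and 15% either way. None of the 3 tools called any of the 41 higher, where limma called 2.68% of all genes higher. Sex-linked transcripts, depth and whatever else the codes mark cannot be told apart.

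The chemokines Cxcl9 and Cxcl10 both attract T cells through CXCR3 and lie next to each other on chromosome 5, and their highest libraries differed. Cxcl9 (92321347 to 92328079, minus strand), known as a target of interferon gamma, had 20.2, 74.7 and 16.9 in wild type and 24.1, 23.9 and 228 in knockout, with knockout library 3 apart. Cxcl10 (92346638 to 92348889, minus strand), which NF-kB also drives, had 1269, 716 and 501 in wild type and 697, 350 and 429 in knockout, with wild-type library 1 the highest. Knockout library 1, the leading library of Mx1 and Ifit1, was inside the range of the others for both. The 5 genes of the general leukocyte list summed to 93.6 in knockout library 3, to 41.0 and 45.3 in knockout libraries 1 and 2 and to 26.9 to 40.2 in wild type, and most of the sum in knockout library 3 was Vav1 (65.8), with Ptprc at 1.26. Their part in the Cxcl9 value was not tested.

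The remaining 9 genes were mostly level. Parp9, an ADP-ribosyltransferase relative, had 473, 536 and 462 in wild type and 556, 528 and 469 in knockout. Parp14 of the same family had 567, 519 and 566 against 554, 505 and 502. Ifi35, an adaptor protein, lay between 341 and 404 in the 6 libraries. Ifi27, whose locus overlaps that of Ifi27l2a, had 1160, 1397 and 1098 in wild type and 1130, 1301 and 1037 in knockout. Xaf1, a promoter of cell death, lay between 53.3 and 73.7, Sp100, a nuclear body protein, between 37.9 and 102, and Lgals3bp, a secreted glycoprotein, between 53.6 and 105. Samd9l, a restraint on translation in infected cells, had 26.1, 55.5 and 13.0 in wild type and 65.99, 37.9 and 34.1 in knockout. Ifi44 had 30 reads in knockout library 1, 11 in wild-type library 2 and 0 to 2 in the other 4.

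As a comparison of genotypes, 31 of the 41 tested genes had a log2 difference above 0 and 10 below, knockout minus wild type. Of all 13671 tested genes, 6704 lay above 0 and 6967 below. The median was 0.14 over the 41, against −0.00339 over all tested genes, and the 41 depended on knockout library 1, as given further on. All such differences were taken between mean log2(normalized count + 1) values, a scale that understates those of low genes. Limma called 0 of the 41 at a Benjamini-Hochberg adjusted p under 0.05, as did edgeR and DESeq2, where limma and edgeR called 0% of all tested genes in either direction and DESeq2 0.168% higher, 0.322% lower and 0.49% either way. DESeq2 gave Mx1 no adjusted p. At an unadjusted p under 0.05, limma gave 3 of the 41 (Oas1a, Iigp1 and Igtp, all higher) and 759 of all 13671 (5.55%); edgeR gave 2 of the 41 (5.63% of all genes) and DESeq2 4 (6.08%). The groups did not overlap for 2 of the 41, Oas1a and Igtp, both higher in knockout, where 5.08% of all tested genes were higher without overlap and 5.87% lower, 11% in all. With 3 libraries a group, an exact permutation test cannot go below 0.1, and none was run.

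The genes with the largest differences show how far the libraries of a group lay apart. Iigp1 differed by 3.71 ± 1.22 (SE), its wild-type mean being 7.26 ± 11.2 and its knockout mean 61.3 ± 45.4 (SD, n = 3), and did not pass limma (Benjamini-Hochberg adjusted p = 0.817) or DESeq2 (adjusted p = 0.477). With the replicate number as a block DESeq2 called it (adjusted p = 0.0278), the 1 of the 41 called higher in that fit, where 0.417% of all genes were called higher, 0.819% lower and 1.24% either way. With the code series as a term DESeq2 gave it an adjusted p of 0.0806 and called 0 of the 41, where 0.761% of all genes were called higher, 1.46% lower and 2.22% either way. In the DM22 libraries alone limma, edgeR and DESeq2 each called 0 of the 41, with 0, 0 and 2 at an unadjusted p under 0.05, where 11.8%, 12% and 9.34% of all genes were. There limma and edgeR each called 0.0148% of all genes, all lower, and DESeq2 called 0.902% higher, 1.07% lower and 1.97% either way. Oas3 differed by 1.78 ± 1.01 (SE), Oas1a by 1.51 ± 0.45, Gbp2 by 1.44 ± 0.69 and Mx1 by 1.01 ± 1.49, and on the lower side Cxcl10 by −0.71 ± 0.40 and Sp100 by −0.39 ± 0.34. For Mx1 the means were 22.1 ± 1.88 and 194 ± 312 (SD, n = 3), a knockout spread that 1 library makes. Without knockout library 1, 22 of the 41 differences lay above 0 and 19 below, the median over the same 41 was 0.02, and 9 changed sign: Mx1, Mx2, Ifit2, Gbp3, Irf7, Ifih1, Ddx58, Dhx58 and Oas1b. Mx1 went from 1.01 to −0.78 and Rsad2 from −0.34 to −2.37. Without knockout library 3, 36 lay above 0 and 5 below, and 9 other genes changed sign, among them Ifit1, Rsad2, Isg15, Irf1 and Cxcl9. The sign also turned with the scale: edgeR and DESeq2, which compare mean counts, gave Rsad2 1.9 and 1.91 and Ifit1 1.38 by both, where limma on log values gave −0.34 and −0.33. For Mx1 both gave 3.14, against 1.01 by limma.

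The direction of the difference varied between same-numbered pairs. In pair 1, 34 of the 41 genes were higher in knockout, with a median log2 difference of 0.49. In pair 2, 8 were higher and 33 lower, with a median of −0.17. In pair 3, 24 were higher and 17 lower, with a median of 0.03. Over all tested genes the shares above 0 were 49.9%, 47.9% and 49.5%. Rsad2 had 3.42, −3.34 and −1.11 in pairs 1 to 3 and Mx1 4.71, −1.57 and −0.12. Pair 2 sets wild-type library 2, the second highest library, against knockout library 2, and pair 1 sets the highest library against one of the low ones. Oas1a (2.43, 0.28 and 1.81), Igtp (1.11, 0.12 and 1.34) and Adar (0.20, 0.14 and 0.18) were among 5 of the 41 that were higher in knockout in all 3 pairs, with Stat2 and Ifi35 (15.3% of all tested genes were). Another 5 were lower in all 3, where 17.3% of all tested genes were: Cxcl10 (−0.86, −1.03 and −0.22), Irf1, Parp14, Ifi27 and Sp100. By the interaction of genotype and code series, limma, edgeR and DESeq2 each called 0 of the 41 (limma, lowest Benjamini-Hochberg adjusted p 0.867), with 1 gene each at an unadjusted p under 0.05. Of all genes, DESeq2 called 0.263% there, 0.0805% higher and 0.183% lower, and limma and edgeR none. The shares of all genes at an unadjusted p under 0.05 were 5.47% by limma, 5.26% by edgeR and 3.25% by DESeq2.

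**Figure D4:**
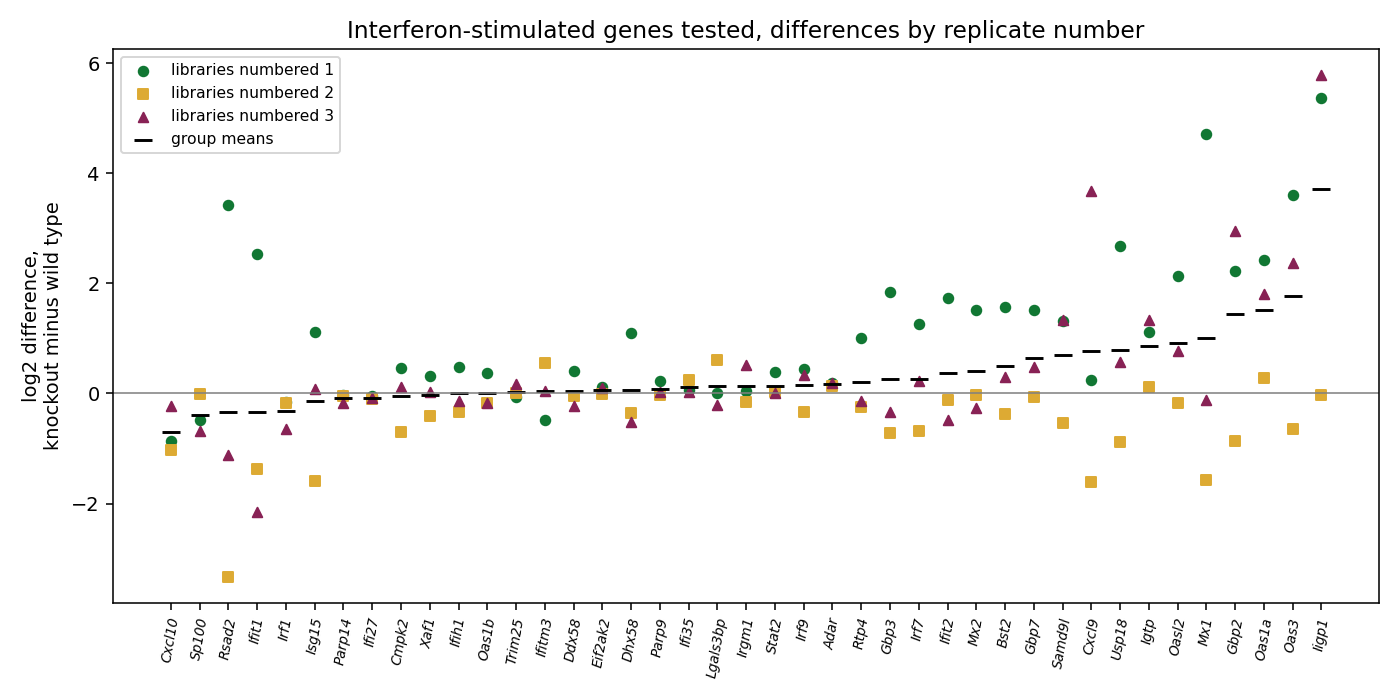
Log2 difference, knockout minus wild type, on log2(normalized count + 1) (vertical axis) for the 41 tested genes (horizontal axis, ordered by the difference of the group means, drawn as black bars); green circles, yellow squares and purple triangles are the pairs of libraries numbered 1, 2 and 3. Pair 1 lies above 0 for 34 genes and pair 2 below 0 for 33.

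The interferons themselves were at 3 reads or fewer in every library. Of 10 ligand genes, 7 had 0 reads in every library, among them Ifnb1, Ifna4, Ifne and the lambda interferons Ifnl2 and Ifnl3 (listed as Il28a and Il28b). Ifnk, the keratinocyte interferon, reached at most 1.65 normalized counts, Ifna5 1.26 and Ifng 2.87 (in wild-type library 2). Transcripts below this depth, or made at another time, are not detectable here.

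The receptors and kinases were present throughout. All 11 genes of that list were tested and none was called in any fit, with a median difference of 0.02. Ifnar1, the type I receptor chain, lay between 1803 and 1989, and Ifnlr1 (listed as Il28ra), the type III chain, between 627 and 922. Differences were largest for Ifnar2 (−0.30 ± 0.12, SE), Il10rb (−0.29 ± 0.19), Tyk2 (0.11 ± 0.09) and Ifngr2 (−0.10 ± 0.14). Of these 4 the groups did not overlap for Ifnar2, and of all tested genes 11% had groups that did not overlap. The mean deviation of this list in knockout library 1 was −0.07, inside the range of the other libraries (−0.10 to 0.10).

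Upstream sensing genes and inhibitors gave no call either. Of the 14 sensing genes 10 were tested, with a median of −0.04. Sting1 (listed as Tmem173), the adaptor of cytosolic DNA sensing, had 299, 107 and 271 in wild type and 75.8, 98.9 and 126 in knockout, a difference of −1.06 ± 0.43 (SE), with its lowest value in knockout library 1. It was not called (limma, Benjamini-Hochberg adjusted p = 0.892). Tlr3 (−0.26 ± 0.27), Tbk1 (0.15 ± 0.10) and Mavs (0.10 ± 0.11) came next, and the groups did not overlap for Tbk1. Among 11 genes that restrain the response the median was −0.11. Socs1, the inducible inhibitor of JAK kinases, had 142, 115 and 152 in wild type and 102, 94.8 and 111 in knockout, so its groups did not overlap, with a difference of −0.40 ± 0.18. Rnaseh2c (−0.26 ± 0.12), Socs3 (−0.22 ± 0.31) and Rnaseh2a (−0.17 ± 0.11) followed, and the groups of Rnaseh2c did not overlap either. The share of all tested genes with no overlap was 11%.

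A second list of 40 interferon-inducible genes, of which 28 were tested, had its highest values more often in wild-type library 2. Its mean deviation was 0.22 in knockout library 1, 0.18 in wild-type library 2 and −0.31 in wild-type library 3, with −0.07 to 0.04 in the other 3. Of the 28, 12 were highest in wild-type library 2, where 23.1% of all tested genes were, and 8 in knockout library 1, where 11.6% were. Phf11d had 33.6, 33.5 and 26.01 in wild type and 74.9, 31.3 and 31.6 in knockout, and Ddx60, a cofactor of RNA sensing, 38.7, 45.96 and 24.7 against 73.1, 40.4 and 25.3. Trim30a had 10.7 in knockout library 1, at most 1.26 elsewhere. None of the 28 was called, and the median difference was 0.08. Ifi47 (0.74 ± 0.88, SE), Oas1g (0.70 ± 0.34), Gbp6 (−0.53 ± 0.54) and Phf11d (0.44 ± 0.40) were the largest. Among the genes just named the groups did not overlap for Oas1g, where 11% of all tested genes had no overlap.

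Markers of other cells were mostly within the range of the other libraries in knockout library 1. There, Ptprc, Cd3e and Siglech had 0 reads, which allows up to 2.68 normalized counts, Csf1r had 0.892, and the natural killer cell genes Ncr1, Klrb1c, Gzma and Nkg7 had 0 reads in every library. Summed levels in knockout library 1 against the range of the other 5 were 127 against 73.1 to 135 for 6 macrophage genes (mostly Cd68, which was highest in knockout library 1, at 126 against 73.1 to 120), 470 against 284 to 928 for 6 dendritic and Langerhans cell genes, 433 against 174 to 980 for 7 T cell genes (almost all of it Thy1), 49.1 against 29.7 to 96.2 for 4 endothelial genes and 225 against 124 to 317 for 5 melanocyte genes. The dendritic and Langerhans cell sum there was all Cd74 (268), H2-Ab1 (146) and H2-Aa (55.3), with Cd207, Itgax and Siglech at 0 reads. Neutrophil genes summed to 11.6 against 11.8 to 63.2. B cell genes summed to 8.03 against 3.30 to 11.4, and mast cell genes to 0.892 against 0 to 3.30. The 5 fibroblast genes summed to 7185 in knockout library 1 and to 1449 to 9425 elsewhere. Nearly all of it was Dcn, which was highest in wild-type library 2 (9253), with knockout library 1 next (7060). The other 4 did not follow Dcn. In knockout library 1 Col1a1 had 33.9 (29.7 to 354 elsewhere) and Col1a2 73.1 (41.2 to 272). Pdgfra had 16.9 there (14.8 to 34.5 elsewhere) and Lum 1.78 (0 to 29.9). The part of these levels in the library differences was not tested.

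Outside the lists, the genes whose values ran most like the mean of the 41 over the 6 libraries were Xpo6 (Pearson r = 0.988), Wdr24 (0.982), Zscan18, Ube2w, Atg2a, Arl6, D230025D16Rik, Helz, Pnpla2 and Lrrc16a (r = 0.956 or more for the other 8). They were the first 10 of 11767 genes ranked with only 6 libraries, and their own changes were narrow: Xpo6 lay between 3188 and 3509, and Zscan18, with 297, 385 and 294 in wild type and 443, 333 and 345 in knockout, varied most among them.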

How the data were processed

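Total RNA came from the RNeasy Plus kit (Qiagen) and libraries were prepared with TruSeq RNA v2, a kit that does not mark strand, per the labels' protocols. STAR 2.5 and DESeq2 1.18.1 were used with mm10 (GRCm38), per the submitters' processing notes; for the counting tool, annotation and filters the labels give nothing. The authors deposited a signal of read counts divided by a size factor per library. Tested on the values, 100% were whole multiples of 1 step per library (tolerance 0.001 reads), so reads could be recovered.

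Genes with a mean of at least 10 were tested with limma 3.58.1 (R 4.3.3; trend, robust) on log2(value + 1), two-sided, with Benjamini-Hochberg adjustment over all 13671 genes and a threshold of 0.05. On the recovered reads, edgeR 4.0.16 with TMM factors and its quasi-likelihood test, and DESeq2 1.42.0, called 0 and 67 genes. The fits were tested on simulated data. Alternatives were other pseudocounts (0.5 and 5), filters, scalings, a replicate block, a code series term and leaving out each library.

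The replicate numbers are shared by label only. Deviations from the group means correlated by 0.333, 0.327 and 0.694 for libraries numbered 1, 2 and 3. Each was above the limit of 0.1, so the numbers were taken as pairs. However, the highest value for knockout library 1 was with wild-type library 2 (0.504), and wild-type library 1 with knockout library 2 gave 0.26. Differently numbered DM22 libraries thus also passed the limit, which cannot tell pairing by number from a shared code series there. For replicates 1 and 2, pair differences and the replicate block rest on the labels alone.

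The genes and lists were chosen with earlier results of these data known. By rule, members called in any fit and up to 3 per role with the highest means were given in full, others by range or as chosen after their values were seen, with up to 4 genes of each of 5 related lists (85 of 86 genes in the table, some by older symbols) and 10 genes alike in pattern. Of 61 markers in 12 cell type lists 58 were found. The values of 1 gene of the related lists are not reported here. Gene positions are from GENCODE M21 (GRCm38), 1-based.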

Additional observations from a re-analysis of the deposited data

How the results depend on the processing

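Between the genotypes limma called 0 of the 46, so there was no call that could change direction. Signs of uncalled differences did change, for 3 to 9 of the tested genes without 1 library. They changed for 3 by edgeR or DESeq2, 2 with a pseudocount of 5 and 2 with quantile normalization. By edgeR or DESeq2 with the code series term 4 changed, and by edgeR with the replicate block 2. In the DM22 libraries alone 7 changed by edgeR or DESeq2 and 5 by limma. The median difference of the tested genes kept its sign in 24 settings, from 0.0291 to 0.216, both reached by leaving out 1 library (the lower without knockout library 1, over the 40 genes that then reach the mean of 10). Of 933 single-gene values under alternatives, 4 moved by more than the spread between replicates: in the DM22 libraries alone, the log2 difference of Mx1 was 3.67 by edgeR and 3.68 by DESeq2, and the log2 difference of Cxcl9 was −0.964 and −0.967. That spread was each gene's own and is wide where 1 library stands apart, so the count of 4 is no measure of stability. Rsad2 stayed within it while going from −0.344 by limma to 1.91 by DESeq2. For knockout against wild type the count of all genes called, 0 by limma, was 67 by DESeq2, 169 by DESeq2 with the replicate block, 303 by DESeq2 with the code series term, and in the DM22 libraries alone (added after seeing the data) 2 by limma, 2 by edgeR and 267 by DESeq2. Leaving out 1 library gave 0 to 1. The count among the 46 was 0 except for 1 (Iigp1) by DESeq2 with the replicate block; limma and edgeR with the block called 0 of all genes. The block changed no other call among the 46. Related genes called stayed at 0. Between the code series, 923 genes by limma became 2056 by DESeq2 and 105 to 1492 without 1 library (118 without knockout library 1, 105 without knockout library 2), and 1 of the 46 became 3 by DESeq2 and 0 to 2 without 1 library. The interaction gave 0 calls by limma and edgeR and 36 by DESeq2. The share of the 46 highest in knockout library 1, 63.0%, was 53.1% to 65.2% under other filters and scalings, also added later. With an ISRE core lengthened by a C the promoter share was 44.1%, against 0.944% of all genes. Depth limits genes near 3 reads, such as Ifit3, Ifi44, Oas2 and Gbp4, whose differences rest on few reads.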
